A study of Mus musculus with 12 samples.

Results

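Matrix metalloproteinases are zinc enzymes that cut collagens, elastin and the proteins of the basement membrane, and the tissue inhibitors of metalloproteinases (TIMPs) bind their active sites. They are described here through 7 enzyme genes (Mmp2, Mmp3, Mmp9, Mmp10, Mmp12, Mmp13 and Mmp14) and 3 inhibitor genes (Timp1, Timp2 and Timp3) in mouse proximal jejunum. The genes were chosen by name: a probe set belongs to them where the platform annotation pairs it with exactly 1 of these symbols. All 10 genes were found, each with 1 probe set, among 18820 genes measured. In the gut wall most of these enzymes are made by fibroblasts, macrophages and neutrophils of the lamina propria, as inactive precursors that other proteases activate. Mmp14 sits in the cell membrane and, with Timp2 as an adaptor, activates the precursor of Mmp2. Mmp3 activates the precursors of several other members, Mmp9 and Mmp13 among them.

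RNA came from 12 mice, 3 in each of 4 groups. Wild-type mice (C57BL6/J) and mice with a targeted Tlr2 gene (B6.129-Tlr2tm1Kir/J), which lack a receptor for bacterial lipoproteins, were compared without treatment and after methotrexate, an antifolate that stops dividing cells. The drug was given intraperitoneally at 40 mg per kg body weight on each of 4 days, and those mice were killed on day 7; for the untreated mice the labels give neither an injection nor a day, and the sources used here give no ages. The question of the series is whether the gut injury that follows methotrexate differs without TLR2. Values are log2 signals, so a difference of 1 is a doubling.

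The promoters of these genes are shown first because the 4 members of a chromosome 9 cluster held motif letters that the other members with a window lacked. RefSeq (build GRCm38.p6) windows from 250 bases before to 50 bases after an annotated start were held for 8 of the 10 members, as 9 windows because Mmp12 has 2 starts; Mmp2 and Mmp9 had none. Mmp3, Mmp10, Mmp12 and Mmp13 each had 1 window with the AP-1 motif TGACTCA or its reverse complement TGAGTCA, the site bound by Fos and Jun dimers, and the same 4 windows held the letters TATAAA of a TATA box. Both strands were searched, and the motifs do not overlap. The other Mmp12 window held neither motif. Of all 32851 windows, 5.20% held the AP-1 motif, 13.6% the TATA motif and 0.941% both. These 4 genes lie in 1 cluster of metalloproteinase genes, so they are not independent cases beside these shares. The 140 bases from 120 before the start onward are printed 5′ to 3′ for these 4 genes and for Mmp1a, a neighbouring interstitial collagenase gene outside the chosen members, with AP-1 and TATA motifs in capitals.
Mmp13, chr9:7272394-7272533, plus strand: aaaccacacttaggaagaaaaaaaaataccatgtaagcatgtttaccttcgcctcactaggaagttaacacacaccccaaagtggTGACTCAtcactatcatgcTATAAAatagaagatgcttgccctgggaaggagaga
Mmp12, chr9:7347254-7347393, plus strand: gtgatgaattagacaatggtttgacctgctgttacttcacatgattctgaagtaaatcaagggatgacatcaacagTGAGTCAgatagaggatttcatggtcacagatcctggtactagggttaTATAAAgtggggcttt
Mmp3, chr9:7445702-7445841, plus strand: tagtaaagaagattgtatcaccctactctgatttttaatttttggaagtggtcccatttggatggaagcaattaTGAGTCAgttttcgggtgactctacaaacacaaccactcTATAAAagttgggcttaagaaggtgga
Mmp10, chr9:7502222-7502361, plus strand: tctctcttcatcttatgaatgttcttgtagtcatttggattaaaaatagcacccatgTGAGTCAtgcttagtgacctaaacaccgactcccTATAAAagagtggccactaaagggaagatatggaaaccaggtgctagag
Mmp1a, chr9:7464021-7464160, plus strand: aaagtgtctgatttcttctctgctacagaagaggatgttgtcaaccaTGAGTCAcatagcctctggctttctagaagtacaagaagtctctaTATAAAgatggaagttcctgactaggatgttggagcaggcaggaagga

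Counted back from the annotated start, the AP-1 motif began 35 bases before it in Mmp13, 44 in Mmp12, 46 in Mmp3, 63 in Mmp10 and 73 in Mmp1a. The TATAAA letters began 16 bases before the start in Mmp13, 7 in Mmp3, 29 in Mmp10 and 28 in Mmp1a, and 4 bases after it in Mmp12, so their distance from the annotated start varied. Mmp14 and the 3 TIMP genes, which lie on other chromosomes, held neither motif in these exact letters. Near matches were not counted, such as TGAGTAA in the Timp1 window, which lies past the stretch given below. The GC box GGGCGG, a motif of 35.7% of all windows, was held by 4 of 4 windows of these genes. None of the 12 windows of the chromosome 9 genes held it. The stretches of Mmp14 and Timp1 are given for comparison, with GC boxes on either strand in capitals.
Mmp14, chr14:54431478-54431617, plus strand: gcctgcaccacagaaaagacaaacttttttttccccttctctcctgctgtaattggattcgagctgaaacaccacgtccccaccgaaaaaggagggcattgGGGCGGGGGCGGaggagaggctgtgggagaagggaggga
Timp1, chrX:20870046-20870185, plus strand: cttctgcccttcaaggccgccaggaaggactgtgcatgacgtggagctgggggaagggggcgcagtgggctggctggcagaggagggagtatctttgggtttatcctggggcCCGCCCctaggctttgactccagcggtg

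A motif match describes the letters of a window; no binding was measured. All 7 genes with the AP-1 and TATA pair among the 10 of the chromosome 9 cluster are shown with their expression further on, since Mmp1a and Mmp1b have the pair and Mmp8 lacks the AP-1 motif.

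Array medians lay between 4.37 and 4.56. Arrays of 1 group correlated at 0.967 to 0.992 over all 35556 probe sets, and those of methotrexate-treated knockout mice at 0.916 to 0.948 with the rest. The probe set for Tlr2 read 4.36 to 5.02 in untreated and 5.28 to 6.18 in treated knockout arrays, against 4.37 to 4.65 in all wild-type arrays, so it was not lower under the knockout label, and its position against the targeted exons could not be read from the files used here. Markers of pancreatic acinar cells were high on 7 arrays (mean log2 signal 12.1 to 12.6 over 10 genes) and at 3.95 to 5.42 on the other 5, which are replicate 1 of every group and replicate 3 of the treated wild type. Every group held both kinds of array, and results are also given within each kind.

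Methotrexate in knockout mice was followed by a rise of all 10 genes, of between 3.13-fold for Timp3 and 50.5-fold for Mmp3. Over all genes, 18.8% rose in this comparison (limma, Benjamini-Hochberg adjusted p under 0.05). The median log2 change was 2.57 for the 7 enzymes, 1.93 for the 3 inhibitors and -0.02 for all genes. On each of the 3 treated knockout arrays, each of the 10 genes read higher than on all 9 other arrays, a separation that 17.2% of all genes showed.

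**Figure D1:**
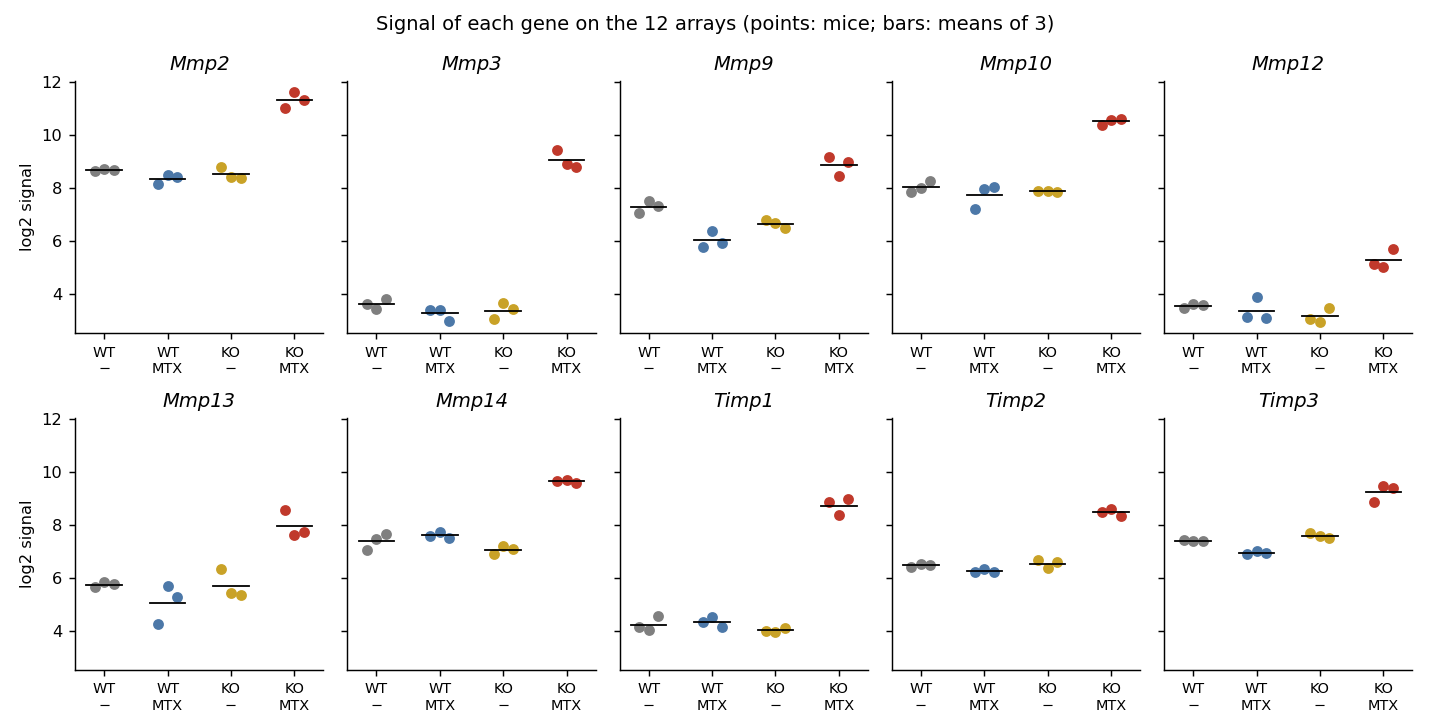
Log2 signal (vertical axis) of the 7 enzyme and 3 inhibitor genes in untreated (−) and methotrexate-treated (MTX) wild-type (WT) and knockout (KO) mice; each point is 1 mouse and each bar the mean of 3. In every panel the 3 treated knockout mice lie above the 9 others, from 5.04 to 5.69 for Mmp12 up to 11.02 to 11.60 for Mmp2; heights are not comparable between genes, since each probe set has its own response.

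Among the stromelysins, which cut proteoglycans, laminin and fibronectin, Mmp3 read 3.63, 3.46 and 3.81 in untreated wild-type mice and 3.41, 3.42 and 3.00 after methotrexate. In knockout mice it read 3.05, 3.66 and 3.44 untreated and 9.43, 8.92 and 8.78 after methotrexate. Only the treated knockout mice were high; the other groups lay near the 25th percentile of the genes' mean signals (3.22), so the size of the fold rests on a level close to the dim end of the array. The rise of Mmp3 was 5.66 ± 0.20 (log2 change ± limma standard error, adjusted p = 1.17e-08), the 5th largest of 18820 genes. Mmp10, the second stromelysin and its neighbour on chromosome 9, was already well expressed: it read 7.90, 7.90 and 7.86 in untreated and 10.38, 10.56 and 10.60 in treated knockout mice. In wild-type mice Mmp10 read 7.85, 8.0 and 8.26 untreated and 7.20, 7.98 and 8.05 treated, which overlap. It rose by 2.63 ± 0.20 in knockout mice (adjusted p = 1.69e-06), or 6.17-fold. Mmp3 and Mmp10 are related in sequence, and whether their probes share targets is not known here.

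Mmp13, the main interstitial collagenase of rodents, read 6.32, 5.42 and 5.36 in untreated and 8.57, 7.60 and 7.73 in treated knockout mice. Replicate 1 was the highest in both of these groups. In wild-type mice it read 5.64, 5.84 and 5.75 untreated and 4.25, 5.69 and 5.27 treated, with 1 low array among the treated. Its rise of 2.26 ± 0.37 in knockout mice (adjusted p = 0.000599) had the largest standard error of the 10 genes. Without replicate 1 of the treated knockout it was 1.96 ± 0.38 (adjusted p = 0.00201).

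The gelatinases cut denatured collagen and type IV collagen of the basement membrane. Mmp2, made chiefly by fibroblasts, read 8.80, 8.43 and 8.39 in untreated and 11.02, 11.60 and 11.31 in treated knockout mice, a rise of 2.77 ± 0.16 (adjusted p = 2.66e-07). In wild-type mice it read 8.65, 8.73 and 8.67 untreated and 8.14, 8.50 and 8.43 treated. Mmp9, stored in neutrophil granules and made by macrophages, read 6.78, 6.69 and 6.48 in untreated and 9.16, 8.46 and 8.97 in treated knockout mice, a rise of 2.21 ± 0.20 (adjusted p = 7.56e-06). As for all 10 members, the treated knockout values of both gelatinases lay above those of all 9 other arrays, a separation that 17.2% of all genes showed.

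Mmp12, the macrophage metalloelastase, was the dimmest member and read 3.08, 2.97 and 3.49 in untreated and 5.15, 5.04 and 5.69 in treated knockout mice. It rose by 2.12 ± 0.23 (adjusted p = 2.72e-05). In wild-type mice it read 3.48, 3.64 and 3.58 untreated and 3.14, 3.90 and 3.12 treated, so that both wild-type groups overlap. Mmp14, the membrane-type enzyme, read 6.90, 7.21 and 7.09 in untreated and 9.63, 9.68 and 9.59 in treated knockout mice. The treated values differed by less than 0.1, and the rise was 2.57 ± 0.15 (adjusted p = 2.15e-07). In wild-type mice Mmp14 read 7.06, 7.47 and 7.65 untreated and 7.57, 7.73 and 7.49 treated.

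Of the inhibitors, Timp1, the one that cytokines induce most, read 4.01, 3.97 and 4.12 in untreated and 8.85, 8.35 and 8.97 in treated knockout mice. In wild-type mice it read 4.13, 4.03 and 4.55 untreated and 4.34, 4.52 and 4.16 treated. Its rise of 4.69 ± 0.18 in knockout mice (adjusted p = 1.64e-08) was 25.8-fold and second among the members to that of Mmp3. Timp2, usually a constitutive inhibitor, went from 6.66, 6.38 and 6.58 to 8.48, 8.60 and 8.34, a rise of 1.93 ± 0.10 (adjusted p = 1.49e-07). Timp3, which is held in the matrix and also inhibits the TNF-releasing sheddase Adam17, went from 7.68, 7.59 and 7.49 to 8.87, 9.45 and 9.39, a rise of 1.65 ± 0.14 (adjusted p = 3.76e-06). Timp2 and Timp3 had the smallest rises of the 10 genes, and Timp1 a larger one than any enzyme other than Mmp3. In bulk tissue, more cells of a type and more RNA per cell cannot be told apart, and this holds for every change given here.

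The rises stood within each kind of array. Among the arrays with pancreatic RNA the log2 change in knockout mice was 5.30 for Mmp3, 4.61 for Timp1, 3.05 for Mmp2 and 1.88 for Timp3, and among those without it 6.38, 4.84, 2.22 and 1.19. The arrays without pancreatic RNA leave 1 mouse in 3 of the groups, and those with it leave 1 treated wild-type mouse. Only the sizes of the changes are therefore given here. Without pancreatic RNA, the spread comes from the 2 treated wild-type mice and from a limma estimate over all genes.

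In wild-type mice none of the 10 genes changed after methotrexate by the test, in a comparison in which 0.0744% of all genes (14) were called by limma. Unadjusted p-values were under 0.05 for 2 members and for 2198 genes. The median log2 change of the members was -0.31, against 0.00 for all genes, and 8 of the 10 changes were negative. In Mmp2, Mmp3, Mmp9, Timp2 and Timp3 the 3 treated arrays all lay below the 3 untreated ones, where 9.18% of all genes showed such a separation. Mmp9 stood out by size. It read 7.07, 7.50 and 7.32 untreated and 5.79, 6.40 and 5.94 treated, a log2 change of -1.26 ± 0.20 (unadjusted p = 7.05e-05, adjusted p = 0.0647). The adjusted p of Mmp9 was 0.0498 with quantile normalisation, 0.0303 without replicate 1 of the treated knockout, 0.000999 with array weights and 0.0464 among the arrays with pancreatic RNA, and ran from 0.000999 to 0.296 over all 25 alternatives, so its side of the threshold depends on the setting. Timp3 read 7.42, 7.38 and 7.40 untreated and 6.90, 7.01 and 6.92 treated, a log2 change of -0.45 ± 0.14 (adjusted p = 0.264). Markers of macrophages and monocytes, a source of Mmp9, had a median log2 change of -0.70 in the same comparison, with 0 of 11 called, and their summed log2 signal was 11.11 to 11.17 untreated and 9.89 to 10.73 treated. The part of these cells in the Mmp9 values was not tested.

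Untreated knockout and wild-type mice differed in none of the members by the test, where 0.0106% of all genes (2) were called; unadjusted p-values were under 0.05 for 2 members and for 1165 genes. The changes ran from -0.65 ± 0.20 for Mmp9 (adjusted p = 0.786) to 0.19 ± 0.14 for Timp3 (adjusted p = 0.817). Mmp9 was the only member whose knockout arrays all lay below the wild-type ones, as for 5.63% of genes, and Timp3 the only one with all above, as for 7.47%. With array weights Mmp9 was called (log2 change -0.82, adjusted p = 0.0269), the only one of 25 alternatives in which it was.

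After methotrexate, knockout mice had higher signals than wild-type mice for all 10 genes, in a comparison in which 20.2% of all genes were higher. The differences ran from 1.91 ± 0.23 for Mmp12 to 5.76 ± 0.20 for Mmp3, with a largest adjusted p of 8.13e-05. This comparison shares the treated knockout arrays with that of methotrexate in knockout mice, so the values are set side by side and not counted as separate support. For Mmp9 the difference between treated genotypes (2.82) was larger than the rise within knockout mice (2.21), and for Mmp14 it was smaller (2.04 against 2.57).

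The effect of methotrexate differed between genotypes for all 10 genes by the interaction test, which was so in this direction for 11.8% of all genes. Mmp3 had an interaction of 6.01 ± 0.29 (adjusted p = 3.24e-07), the 2nd largest positive value of 18820 genes, and Timp1 one of 4.59 ± 0.25 (adjusted p = 7.29e-07), the 14th largest. Mmp9 followed with 3.47 ± 0.29 (adjusted p = 1.02e-05), which joins its rise in knockout mice with its negative change in wild-type mice. The smallest was 2.10 ± 0.20 for Timp3, and the largest adjusted p was 0.00174, for Mmp13.

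**Figure D2:**
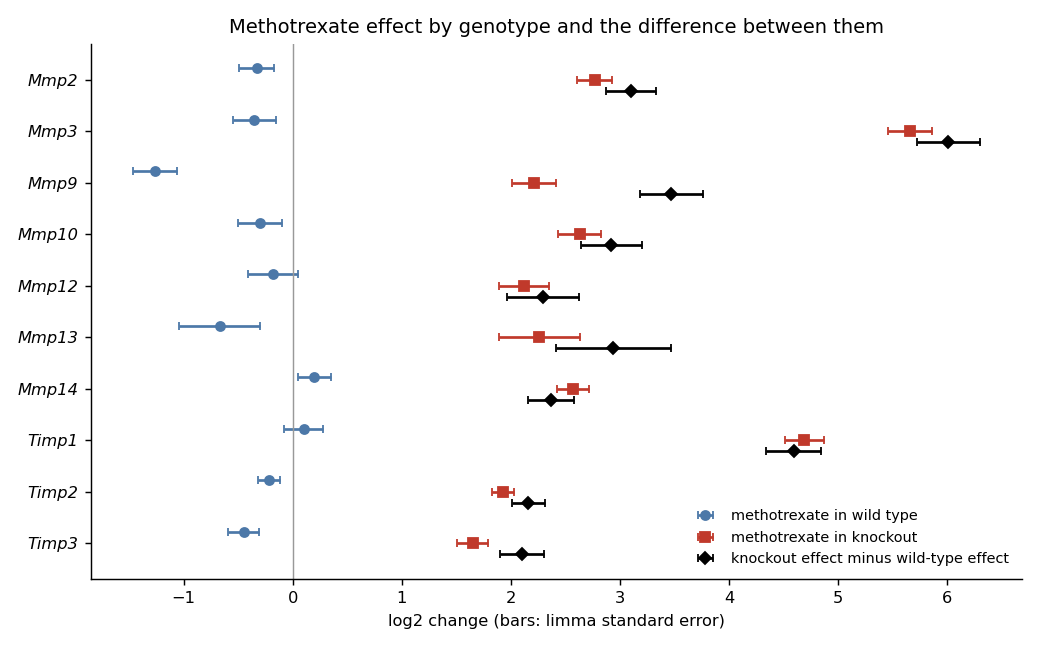
Log2 change (horizontal axis, with limma standard errors) of each gene after methotrexate in wild-type mice (circles), in knockout mice (squares) and the difference between these effects (diamonds). Changes in wild-type mice lie between -1.26 and 0.20, and those in knockout mice between 1.65 and 5.66.

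Mmp3, Mmp10, Mmp12 and Mmp13 belong to a run of 10 metalloproteinase genes that follow each other on chromosome 9 in the RefSeq annotation, and 9 of these could be read here. In the order Mmp13, Mmp12, Mmp1b, Mmp3, Mmp1a, Mmp10, Mmp8, Mmp20 and Mmp7, the log2 changes in knockout mice were 2.26, 2.12, -0.10, 5.66, -0.07, 2.63, 4.70, -0.29 and 1.85. The 6 that rose were thus interleaved with genes that were not called. Mmp8, the neutrophil collagenase, read 2.43, 2.42 and 2.48 in untreated and 7.51, 7.02 and 6.90 in treated knockout mice, and rose by 4.70 ± 0.14 (adjusted p = 3.68e-09). Its untreated signals lie below the 25th percentile of genes (3.22), where a signal may be background, so the size of this rise may be understated and its place among the others is not exact. On the same treated knockout arrays, in the same order, the summed log2 signal of neutrophil markers was 9.89, 7.06 and 7.39. In the other groups that sum was 6.55 to 6.84. Which cells gave the Mmp8 signal was not tested. Mmp7, the epithelial matrilysin of Paneth cells, went from 9.23, 7.87 and 7.52 to 10.08, 10.30 and 9.79 (1.85 ± 0.48, adjusted p = 0.0112).

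Mmp1a and Mmp1b, both named for interstitial collagenase, read between 2.13 and 2.60 on all 12 arrays. They were not called in either genotype (adjusted p of 0.593 and 0.419 in knockout mice). These signals lie below the 25th percentile of genes (3.22), so whether the probe sets detected any transcript cannot be said, and a change may have gone unseen. Their promoters hold the same AP-1 and TATA letters as those of the 4 members on this chromosome, as the Mmp1a stretch printed above shows. The promoter of Mmp8, which rose, lacks the AP-1 letters and holds the TATA letters on the opposite strand only, as TTTATA. Mmp7 has the pair and rose, and Mmp20 lacks the AP-1 letters and was not called. Mmp20 read 3.10 to 3.71 in knockout mice, which is also at the dim end of the array. Whether the motifs have a part in the rises was not tested.

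**Figure D3:**
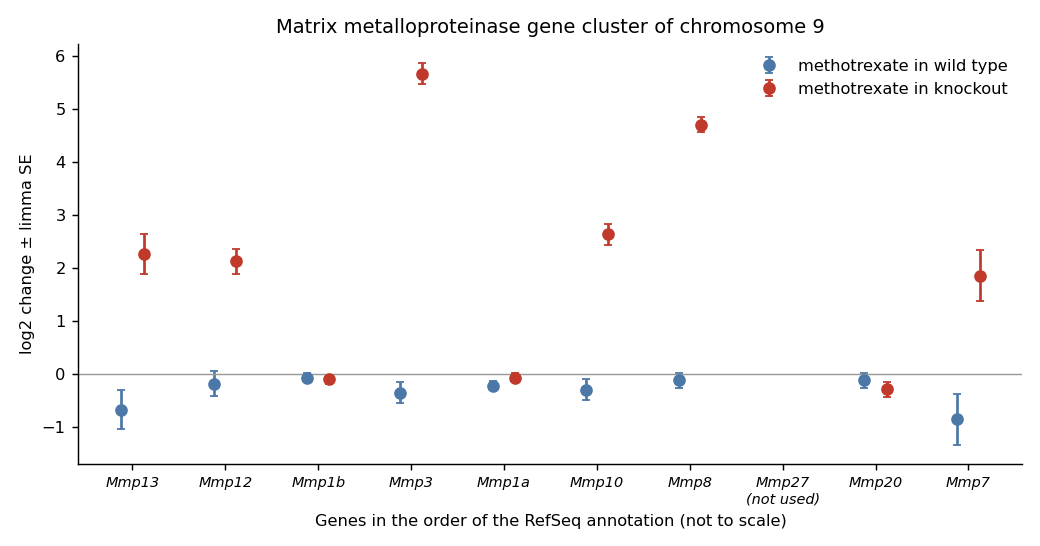
Log2 change ± limma standard error (vertical axis) of the chromosome 9 metalloproteinase genes in annotation order (horizontal axis, not to scale) after methotrexate in wild-type (blue) and knockout mice (red). In knockout mice Mmp3 (5.66) and Mmp8 (4.70) stand highest, and Mmp1a (-0.07) and Mmp1b (-0.10) lie near 0; Mmp8 untreated and both Mmp1 genes throughout read below 3.22, the dim end of the array, and Mmp27 was not used.

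Timp1 and Timp3 lie inside the synapsin genes Syn1 and Syn3, which encode proteins of nerve terminals. These host genes were not called after methotrexate in knockout mice, with log2 changes of 0.07 ± 0.11 for Syn1 (adjusted p = 0.660) and 0.03 ± 0.11 for Syn3 (adjusted p = 0.850). Cep295nl, which overlaps Timp2, rose by 0.80 ± 0.18 (adjusted p = 0.00501) from 2.98 ± 0.20 to 3.78 ± 0.31 (SD, n = 3 each), at the dim end of the array.

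All 10 members were highest on the treated knockout arrays, and they differed in the size of their changes. Likeness was measured as the root-mean-square difference of log2 signals over the 12 arrays, each gene centred on its own mean, so it weighs the size of a change as well as its shape. Mmp2 and Mmp10 were the most alike pair of members (0.20), followed by Timp2 and Timp3 (0.21). Outside the family, the basement membrane gene Nid1 came closest to both Mmp2 (0.14) and Mmp10 (0.17), followed in both by Phlda3, a p53 target (0.16 and 0.18); next came Lhfp for Mmp2 (0.17) and Il1rl2, an interleukin-36 receptor gene, for Mmp10 (0.19). Timp2 came closest to Sirpa (0.10), the fibroblast receptor gene Pdgfra (0.10) and Il6st (0.13). Timp3 lay near the neuronal genes Uchl1 (0.13) and Stmn2 (0.13) and the thrombin receptor gene F2r (0.14). Mmp9 lay near the myeloid genes Ms4a6c (0.29), Msr1 (0.29) and Slc11a1 (0.30), and Mmp13 near Slc11a1 (0.25), the complement receptor gene C5ar1 (0.26) and the prostaglandin synthase gene Ptgs2 (0.34). For Mmp12 the nearest were Adgrl3 (0.20), the toll-like receptor gene Tlr8 (0.20) and Glis3 (0.24), and for Mmp14 Fmnl2 (0.18), Pear1 (0.19) and Mir675 (0.20). Timp1 came nearest to Mmp8 (0.28), the aggrecanase gene Adamts4 (0.33) and the bradykinin receptor gene Bdkrb1 (0.33), and Mmp3 to the alkaline phosphatase gene Alpl (0.32), Igfbp5 (0.43) and Mmp8 (0.47).

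The rest of the family and the proteins around it were read through gene lists. Over all genes, 18.8% rose after methotrexate in knockout mice, and 6549 of 18820 were called in either direction. Of 15 other metalloproteinase genes and inhibitors, 7 rose in knockout mice and 0 fell, with a median log2 change of 0.25: beside Mmp8 and Mmp7 these were Mmp19 (3.58 ± 0.18, adjusted p = 7.17e-08), Reck, a membrane-anchored inhibitor (1.20), Mmp11 (0.63), Timp4 (0.45) and Mmp16 (0.39). Of 16 genes of the related ADAM and ADAMTS proteases 13 rose and 0 fell, median 1.58, led in p by Adam8 (2.94 ± 0.15, adjusted p = 1.17e-07), the aggrecanase gene Adamts4 (4.05), Adamts15 (1.97) and Adamts1 (4.17).

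Genes of precursor activation moved both ways. Of 13 genes of the plasminogen system and of other activators and their inhibitors 6 rose and 1 fell, median 0.42. Plat and Plau, the plasminogen activators, rose by 4.21 ± 0.16 (adjusted p = 1.64e-08) and 1.90 ± 0.24 (adjusted p = 6.89e-05), and Plaur, the receptor of urokinase, by 3.67 ± 0.25. The furin-like convertase gene Pcsk5 fell by 1.47 ± 0.12 (adjusted p = 2.18e-06). Plasminogen itself (Plg) changed by -0.27 (adjusted p = 0.365).

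Of 25 genes of inducing cytokines, their receptors and the transcription factors that act on these promoters, 13 rose and 3 fell in knockout mice, median 0.57. The smallest p-values were those of 4 genes: Osmr, the oncostatin M receptor, rose by 2.75 ± 0.10 (adjusted p = 1.64e-08) and Il1r1, the interleukin-1 receptor, by 3.23 ± 0.14 (adjusted p = 3.53e-08), with Cd44, a docking receptor for Mmp9, at 2.10 and Tgfb1 at 1.56. The 3 that fell were Bsg, an inducer of metalloproteinases in fibroblasts (-0.61, adjusted p = 0.000552), Jun (-0.79, adjusted p = 0.0342) and Fosl2 (-0.47, adjusted p = 0.0333). Of the 6 AP-1 subunit genes read, 0 rose and 2 fell, and Fos changed by -1.10 (adjusted p = 0.0923). The values in wild-type mice were of like size and not called: -0.82 for Jun (adjusted p = 0.282), -0.38 for Fosl2 (adjusted p = 0.382) and -0.90 for Fos (adjusted p = 0.469). The interaction was not called for Jun, Fosl2 and Fos (adjusted p of 0.981, 0.830 and 0.882), so no difference between genotypes was shown for them. For Bsg it was called (-0.71, adjusted p = 0.00322), with a change in wild-type mice of 0.10 (adjusted p = 0.689). These are levels of RNA at 1 time and carry no measure of AP-1 activity.

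All 15 matrix substrate genes rose, median 2.51, led in p by Col18a1 (3.70 ± 0.11), Lamb1 (2.51), Col4a2 (2.51) and Vcan (3.80). In wild-type mice 0 genes of any of the 5 lists were called, and the list medians lay between -0.12 for the inducers and 0.32 for the substrates. Untreated knockout and wild-type mice also differed in 0 genes of these lists. The effect of methotrexate differed between genotypes, with the higher value in knockout mice, for 6 of the 15 other family genes, 13 of the 16 ADAM and ADAMTS genes, 6 of the 13 activation genes, 12 of the 25 inducers and all 15 substrates. Of all genes, 11.8% were called in this direction. Pcsk5 (-1.51, adjusted p = 5.83e-05) and Bsg (-0.71, adjusted p = 0.00322) were called in the other direction.

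**Figure D4:**
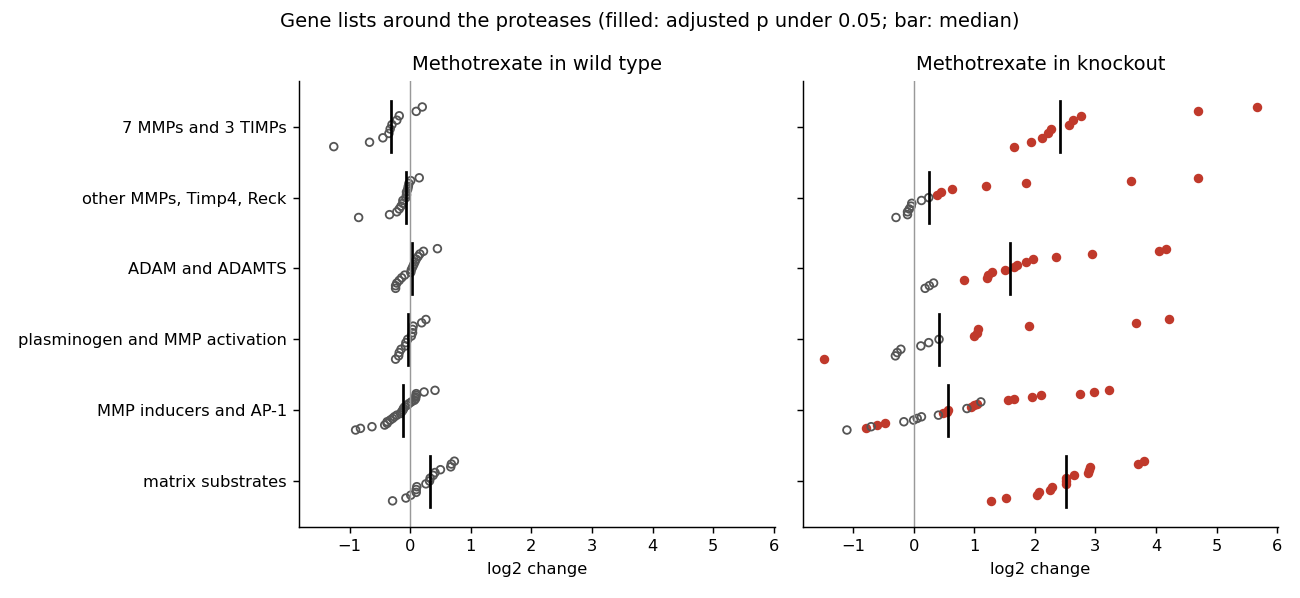
Log2 change (horizontal axis) of every gene of the members and of the 5 lists around them after methotrexate in wild-type (left) and knockout mice (right); filled points passed the test and bars are list medians. No point is filled on the left; on the right the members (median 2.42) and the substrates (2.51) are filled throughout.

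Cell type markers moved in the same comparison and are given beside the members. In knockout mice 18.8% of all genes rose after methotrexate, and 6549 of 18820 were called in either direction. Fibroblast markers rose for 10 of 11 genes, median 1.47, with a summed log2 signal of 12.02 to 12.22 in treated knockout mice and 10.11 to 10.56 in the other groups; Pdgfra, which defines gut fibroblasts, rose by 1.98 ± 0.14 (adjusted p = 9.74e-07). Endothelial markers rose for 7 of 8 genes, median 1.35 (sum 10.90 to 11.05 against 9.22 to 9.64). Markers of macrophages and monocytes rose for 10 of 11 genes, median 1.57 (sum 12.09 to 12.73 against 9.89 to 11.17), with Mrc1 at 3.85 and Cd68 at 2.08. Of 11 enterocyte markers all fell, median -3.43 (sum 10.69 to 13.20 against 14.98 to 15.28), and of 10 T cell markers 8 fell, median -2.05. In wild-type mice 3 T cell markers fell, median -1.24, and no marker of the other lists was called. Smooth muscle markers rose for 3 of 8 genes (median 0.56), and 1 of 7 adipocyte markers rose and 1 fell. The adipocyte sum stood apart on replicate 1 of the untreated wild type, at 11.63 against 9.55 and 9.71 in the rest of its group; Adipoq read 6.50 there against 3.50 and 3.75. Without that array the calls of all 10 members were as reported in every comparison. Pancreatic acinar markers were called for 0 of 10 genes. No marker is at 0 on these arrays, which give every probe set a signal.

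Neutrophil markers rose for 3 of 10 genes, median 1.34, with a summed log2 signal of 9.89 in replicate 1 of the treated knockout, 7.06 and 7.39 in the other 2 and 6.55 to 6.84 elsewhere; Mpo and Elane, the granule proteins made in the marrow, averaged below 3.22 in treated knockout mice. That array was the highest of its group for 3 of the 10 members (Mmp3, Mmp9 and Mmp13) and for 38.6% of all genes, and the other 7 members were highest on the arrays with the lower neutrophil sums. Without it the rise was 2.06 ± 0.21 for Mmp9 and 5.47 ± 0.19 for Mmp3. The part that shifts of cell types have in the rises of the members was not tested.

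**Figure D5:**
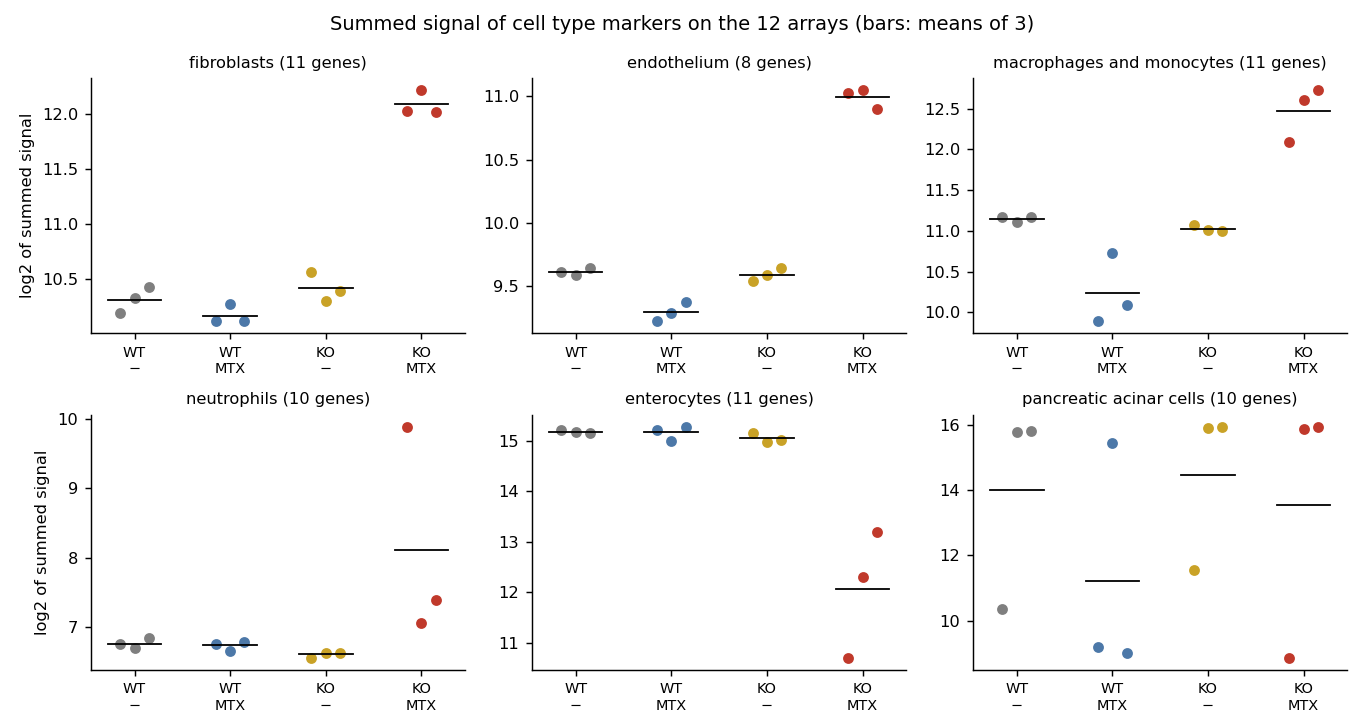
Log2 of the summed linear signal (vertical axis, a separate scale in each panel) of marker genes of 6 cell types on the 12 arrays, with 1 point per mouse and bars for means of 3. Fibroblast, endothelial and macrophage sums are highest and enterocyte sums lowest in treated knockout mice, 1 treated knockout mouse has a high neutrophil sum (9.89), and acinar sums divide the arrays within every group.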

How the data were processed

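Each of 12 mice had 1 Affymetrix array. The authors deposited log2 signals per probe set made with RMA, per the submitters' processing notes, with no version; RMA evens the distribution of signals over arrays, so values are relative to each array's whole. The sources used here name no genome build for the probe sets. Of 35556 probe sets, 21218 had 1 gene symbol in the platform annotation, 1881 several and 12457 none; a gene was read by its brightest single-symbol probe set. The table gives no detection calls, and precision is limited by how many arrays there are.

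Limma 3.58.1 in R 4.3.3 fitted 4 group means to all 12 arrays (8 residual degrees of freedom), with Benjamini-Hochberg adjustment over 18820 genes and calls at an adjusted p under 0.05. On simulated data for methotrexate in knockout mice the fit recovered 81 of 100 genes changed by 1 (log2). It recovered 92 of 100 changed by 2, with 12 false calls among 18820 genes. For the interaction it recovered 51 and 79. The simulated noise was independent between genes and between arrays, and only these genes were changed. The real arrays held many more changes and deviations shared between mice, so these counts may not carry over to them.

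All members were named, with up to 4 genes per list by smallest p in knockout mice, genes behind small counts, and the 3 genes nearest to each member; Plg, Fos, Mmp1a, Mmp1b, Mmp20 and the overlapping genes were named for their place in the pathway or beside members. The members and lists were chosen with earlier results of these data known. Alternatives were another normalisation or centring, other probe set choices, a filter on dim genes, a minimum fold, fewer groups, replicate number or pancreatic RNA as a block, other variance models and leaving out each array. Same-numbered mice deviated together (correlation over 0.1) in 10 of 12 pairs (-0.486 to 0.671), and in all 3 pairs for methotrexate in knockout mice and for the untreated genotypes. The negative correlations, -0.486 and -0.153, were those of pairs with replicate 3 of the treated wild type. That was the only replicate 3 array without pancreatic RNA, which was also absent from replicate 1 of every group. The source of the correlations was not tested.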

Additional observations from a re-analysis of the deposited data

Results flagged for a closer look

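The effect of methotrexate differed between knockout and wild-type mice for every member, by the interaction test with adjustment over all genes. Of all 18820 genes, 11.8% were called in this direction by the same test. The difference of log2 changes, knockout minus wild type, was 3.10 for Mmp2, 6.01 for Mmp3, 3.47 for Mmp9, 2.92 for Mmp10, 2.29 for Mmp12, 2.94 for Mmp13 and 2.37 for Mmp14. It was 4.59 for Timp1, 2.16 for Timp2 and 2.10 for Timp3.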

How the results depend on the processing

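Over 23 planned settings and 2 chosen after seeing the data (only the arrays with, or only those without, pancreatic RNA), all 10 members kept their calls and direction for methotrexate in knockout mice, for the treated genotypes and for the interaction, in 740 of 740 recomputed values, with a lowest log2 value of 1.19 and a largest adjusted p of 0.0183. These values reuse the same arrays, and the 3 comparisons share the treated knockout mice, so they are not separate support. The 2 settings chosen later leave 1 mouse in at least 1 group. The interaction was not run with only the groups compared, since it uses all groups. For methotrexate in wild-type mice the count of members called, all lower, was 0, but 1 with quantile normalisation (Mmp9), 3 with array weights (Mmp2, Mmp9 and Timp3) and 1 among the arrays with pancreatic RNA (Mmp9); leaving out 1 array gave between 0 and 1. For the untreated genotypes it was 0, and 1 with array weights (Mmp9). The cause was not tested. With the replicate number as a block the counts of members were 10, 10 and 10 for the first 3 comparisons and 0 and 0 for the others, and no call changed; over all genes the block moved 14 calls to 0 in wild-type mice. Over all settings the genes called ran from 0 to 1819 in wild-type mice (14 as reported), from 2792 to 9110 in knockout mice (6549), from 1 to 558 between untreated genotypes (2), from 3284 to 8962 between treated genotypes (6948) and from 2845 to 7474 for the interaction (4479). The lowest of these in knockout mice, treated genotypes and the interaction came from the minimum log2 change of 1. Dim genes such as Mmp12 and untreated Mmp3 lie close to the array's floor, which limits the size of their folds.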
